A study of Homo sapiens with 21 samples.

Results

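The E2F transcription factors and their dimerization partners were followed in SK-N-BE(2), an established human neuroblastoma cell line, after transduction with short hairpin RNAs (shRNAs, which lower the transcript of the gene they match) directed at ARID1A and ARID1B. The members are the 10 rows of the deposited table whose symbol is E2F1 to E2F8, TFDP1 or TFDP2, out of 60728 gene identifiers, and all 10 were among the 18584 genes that passed the filter on low values. They comprise 3 activators (E2F1, E2F2 and E2F3), 5 repressors (E2F4 to E2F8) and 2 DP partners (TFDP1 and TFDP2). RNA was taken 72 h after lentiviral transduction in 7 conditions of 3 libraries each, which the labels call biological triplicates: Control, a non-silencing vector; the single shRNAs labelled shARID1A.2 and shARID1A.4; the single shRNAs labelled shARID1B.2 and shARID1B.3; and the combinations labelled shARID1A/B.2.3 and shARID1A/B.4.2, meant to lower both genes. All conditions are 1 transduced line in culture medium, so they describe bulk RNA of that line.

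E2F proteins bind short GC-rich elements in promoters, most of them as a heterodimer with a DP protein, and control the genes that carry a cell from G1 into S phase. E2F1, E2F2 and E2F3 activate these genes once the retinoblastoma protein RB1 releases them, whereas E2F4 and E2F5 repress them in quiescent and early G1 cells together with the RB1 relatives p107 and p130. E2F6 represses through a Polycomb complex, and E2F7 and E2F8 bind DNA without a DP partner and repress the same targets late in S phase, being themselves E2F targets.

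Because several E2F genes are known to carry E2F elements in their own promoters, the promoter windows of E2F1, E2F2 and E2F3 are shown beside those of E2F7, which moved with them in most conditions, and of E2F6, which did not. RefSeq promoter sequences (GRCh38.p14) were matched for 8 of the 10 members, E2F5 and E2F8 being the others. Capitals mark any of TTTCCCGC, TTTCGCGC, TTTGCCGC and TTTGGCGC on either strand, overlapping matches included, and each window runs from 130 bases before the start site through the first 20 bases of the transcript, read in the direction of the gene.
E2F1, chr20:33686366-33686515, minus strand: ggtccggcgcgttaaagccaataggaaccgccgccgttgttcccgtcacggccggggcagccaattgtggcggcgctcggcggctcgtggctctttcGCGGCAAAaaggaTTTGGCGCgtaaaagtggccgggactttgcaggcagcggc
E2F2, chr1:23531214-23531363, minus strand: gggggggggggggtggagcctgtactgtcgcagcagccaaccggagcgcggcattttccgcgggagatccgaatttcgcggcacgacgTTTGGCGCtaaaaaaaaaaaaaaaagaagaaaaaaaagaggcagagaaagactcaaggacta
E2F3, chr6:20401749-20401898, plus strand: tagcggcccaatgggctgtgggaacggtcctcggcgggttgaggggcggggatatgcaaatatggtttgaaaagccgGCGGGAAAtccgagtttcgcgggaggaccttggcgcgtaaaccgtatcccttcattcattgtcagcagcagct
E2F7, chr12:77065550-77065699, minus strand: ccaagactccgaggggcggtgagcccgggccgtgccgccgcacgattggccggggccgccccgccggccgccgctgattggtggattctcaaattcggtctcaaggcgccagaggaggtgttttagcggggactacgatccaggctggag
E2F6, chr2:11466142-11466291, minus strand: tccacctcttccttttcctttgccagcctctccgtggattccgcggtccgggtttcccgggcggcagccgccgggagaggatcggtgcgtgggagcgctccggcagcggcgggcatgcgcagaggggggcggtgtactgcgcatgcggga
E2F1 held 2 such matches, which began 33 and 20 bases before the start site, E2F2 held 1 at 42 bases and E2F3 held 1 at 53 bases before its upstream start. TFDP1 held 1 match at 120 bases. The windows of E2F4, E2F6, E2F7 and TFDP2 and the second, downstream start of E2F3 held none. Of all 35116 promoter windows in the table, which span 250 bases before to 50 bases after the start, 3.31% held at least 1 match. Among windows of tested genes 4.61% did. Counted by gene, 6.29% of the tested genes with a window held a match, and 4 of the 8 members did. A match describes these letters in this window and is not evidence of binding.

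The level of the 2 silenced genes was read first, because it checks the labels. ARID1A, a subunit of the BAF chromatin remodelling complex, had a deposited value (reads divided by 1 size factor per library) of 6097, 6374 and 6463 in Control, and ARID1B, its alternative subunit, of 5793, 5804 and 5791. In the libraries labelled shARID1A both were low: ARID1A stood at 34.0% of Control under shARID1A.2 and 35.6% under shARID1A.4, and ARID1B at 38.7% and 53.5%. In the libraries labelled shARID1B, ARID1A was the low gene, at 30.4% and 39.3% of Control for shARID1B.2 and shARID1B.3, while ARID1B stood at 86.3% and 105%. In the libraries labelled shARID1A/B, ARID1B was the low gene, at 44.8% and 32.9% for shARID1A/B.2.3 and shARID1A/B.4.2, while ARID1A stood at 89.7% and 86.2%. The measured levels therefore go against the labels of all 3 kinds of silenced library: those labelled for ARID1A alone had both genes low, those labelled for ARID1B alone had low ARID1A, and those labelled for both had low ARID1B with ARID1A near Control. Whether titles or columns were exchanged cannot be told from the labels, and every condition below is named as the libraries are labelled.

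Recovered reads per library ranged from 27954334 to 41077638. The 8 adrenergic neuroblastoma markers checked were detected in every library, and their summed value ran from 115084 to 470912, most of it from MYCN, which was highest in the libraries labelled shARID1A.4 (410526 to 426870, against 120355 to 124192 in Control). The 7 mesenchymal markers were detected as well, COL1A2 at 24.7 or less, with a sum of 43184 to 43646 in Control and 16127 to 17264 in shARID1A.2, 17865 to 18182 in shARID1A.4, 39498 to 40810 in shARID1B.2, 34518 to 35803 in shARID1B.3, 25466 to 25851 in shARID1A/B.2.3 and 21313 to 21629 in shARID1A/B.4.2. Of 3 blood markers, HBB and CD3E were at 0 in Control and PTPRC at 399 to 426, with 57.3 as its lowest value in any library. The part of these shifts in the E2F values was not tested.

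In 5 of the 6 silenced conditions E2F1, E2F2, E2F3, E2F7 and E2F8 fell together, and the libraries labelled shARID1B.3 were the exception. E2F5 rose in 5 conditions and fell in shARID1B.3, and E2F6 rose in 5 and fell in shARID1B.2. The changes were tested with limma on log2 of the deposited value plus 1 and adjusted over all 18584 genes, and a gene was called at an adjusted p below 0.05. Most genes were called in every comparison, so the counts are read against that background.

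Members called lower numbered 7 of 10 in shARID1A.2, where 38.2% of all genes were, 5 in shARID1A.4 (36.6%), 8 in shARID1B.2 (34%), 2 in shARID1B.3 (32%), 5 in shARID1A/B.2.3 (34%) and 7 in shARID1A/B.4.2 (36.1%). Members called higher numbered 3, 4, 2, 4, 4 and 3 in the same order, and the shares of all genes were 37.9%, 37%, 31.6%, 31.9%, 35.2% and 35.1%. With a change of at least 0.5 on the log2 scale required as well, a size chosen after seeing how many genes pass the p alone, 5 members were lower in shARID1A.2 against 22.5% of all genes. Under that rule 5 were lower in shARID1A.4 (23%), 5 in shARID1B.2 (14.2%), 1 in shARID1B.3 (15.6%), 5 in shARID1A/B.2.3 (19.6%) and 3 in shARID1A/B.4.2 (19%). Where 5 were lower they were E2F1, E2F2, E2F3, E2F7 and E2F8, in shARID1B.3 the 1 was E2F5, and in shARID1A/B.4.2 they were E2F1, E2F2 and E2F8. In shARID1A/B.4.2 E2F3 (-0.43) and E2F7 (-0.47) were just outside this size, and E2F3 in shARID1A.4 (-0.51) just inside. Members higher by that size numbered 1 in shARID1A.2 (24.7% of all genes), 1 in shARID1A.4 (21%), 0 in shARID1B.2 (15.9%), 1 in shARID1B.3 (13.1%), 2 in shARID1A/B.2.3 (17.9%) and 0 in shARID1A/B.4.2 (20.6%), all of them E2F5 or E2F6. The median size of change over the members was 0.75 in shARID1A.2 against 0.52 over all genes, 0.71 against 0.49 in shARID1A.4, 0.75 against 0.42 in shARID1A/B.2.3, 0.47 against 0.35 in shARID1B.2, 0.40 against 0.44 in shARID1A/B.4.2 and 0.20 against 0.33 in shARID1B.3.

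**Figure D1:**
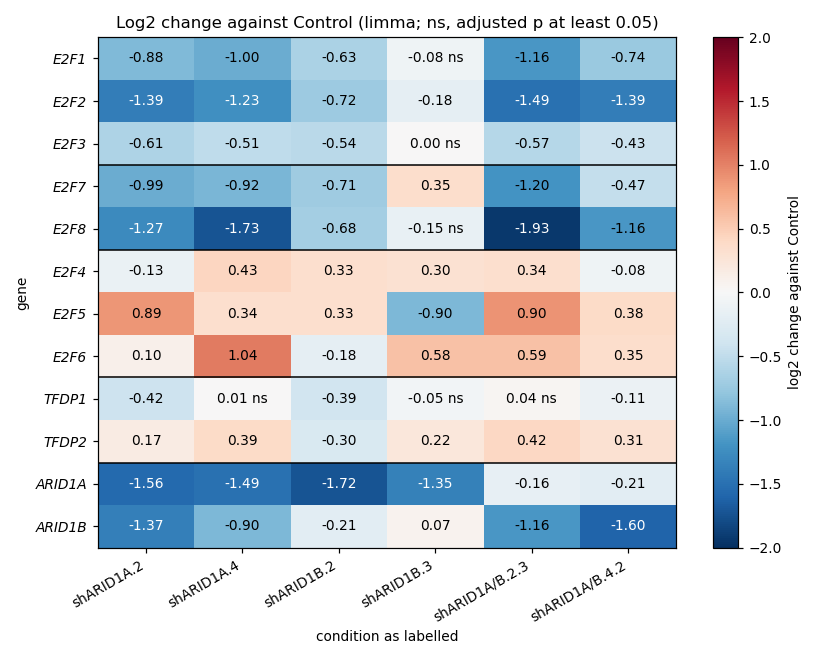
Log2 change of each member and of ARID1A and ARID1B (rows) against Control in the 6 silenced conditions (columns, as labelled), from limma with 3 libraries per condition. Blue is lower and red higher, and ns marks an adjusted p of at least 0.05. The 5 top rows (E2F1, E2F2, E2F3, E2F7 and E2F8) are at -0.43 or below in every column but shARID1B.3, where they run from -0.18 to 0.35, while E2F5 runs from -0.90 to 0.90.

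Among the activators, E2F1, the founding member and a target of the RB1 pathway, is at chr20:33675683-33686404 (GRCh38, minus strand). Its deposited value was 2748, 2843 and 2813 in Control, 1531, 1504 and 1523 in shARID1A.2, and 1482, 1356 and 1362 in shARID1A.4. It was 1780, 1814 and 1832 in shARID1B.2, 2759, 2560 and 2652 in shARID1B.3, 1214, 1270 and 1267 in shARID1A/B.2.3 and 1659, 1755 and 1632 in shARID1A/B.4.2. Every library of 5 conditions lay below all Control libraries, and in shARID1B.3 1 library overlapped the Control range. E2F1 fell by 1.16 on the log2 scale in shARID1A/B.2.3 (SE 0.04, to 44.6% of Control), by 1.0 in shARID1A.4 (50%), by 0.88 in shARID1A.2 (54.3%), by 0.74 in shARID1A/B.4.2 (60%) and by 0.63 in shARID1B.2 (64.6%). Its value of -0.08 in shARID1B.3 did not pass the test (limma, adjusted p = 0.066). In bulk RNA a smaller share of cycling cells and less transcript per cell cannot be told apart.

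E2F2, an activator that overlaps E2F1 and E2F3 in its targets, is at chr1:23506430-23531220 (minus strand). It had values of 1036, 1141 and 1099 in Control, 377, 434 and 439 in shARID1A.2, 481, 472 and 444 in shARID1A.4 and 633, 676 and 679 in shARID1B.2. In shARID1B.3 it stood at 990, 936 and 965, in shARID1A/B.2.3 at 412, 382 and 367 and in shARID1A/B.4.2 at 403, 446 and 401. No library of any silenced condition reached the Control range. It had the largest fall of the 3 activators in each of the 5 conditions: to 38.2% of Control in shARID1A.2 (log2 change -1.39, SE 0.06), 42.7% in shARID1A.4, 60.8% in shARID1B.2, 35.5% in shARID1A/B.2.3 and 38.2% in shARID1A/B.4.2. In shARID1B.3 it fell by 0.18 (SE 0.06, adjusted p = 0.0132), a call that did not hold without Control replicate 2 (-0.15, adjusted p = 0.0685) or without shARID1B.3 replicate 2 (-0.16, adjusted p = 0.0522).

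E2F3, at chr6:20401906-20493715 (plus strand), makes a long and a short protein from separate starts, which the deposited gene values do not separate. Its value was 3802 to 3946 in Control and 3813 to 3922 in shARID1B.3, so these ranges overlapped. The other 5 conditions lay between 2483 and 2969, below every Control library. E2F3 fell by 0.61 in shARID1A.2, 0.51 in shARID1A.4, 0.54 in shARID1B.2, 0.57 in shARID1A/B.2.3 and 0.43 in shARID1A/B.4.2 (SE 0.03 for each), the smallest fall among the activators in each condition. In shARID1B.3 it stood at 100% of Control.

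E2F7 and E2F8, the atypical repressors, followed the activators rather than the other repressors. E2F7, at chr12:77021247-77065580 (minus strand), had values of 1362, 1274 and 1242 in Control, 666, 632 and 651 in shARID1A.2, 690, 653 and 711 in shARID1A.4 and 784, 799 and 778 in shARID1B.2. It had 588, 541 and 558 in shARID1A/B.2.3 and 910, 936 and 952 in shARID1A/B.4.2. All of these lay below Control, and the 1605, 1725 and 1622 of shARID1B.3 lay above it. E2F7 fell to 50.3% of Control in shARID1A.2, 53.0% in shARID1A.4, 61.0% in shARID1B.2, 43.5% in shARID1A/B.2.3 and 72.2% in shARID1A/B.4.2, and it rose to 128% in shARID1B.3 (log2 change 0.35, SE 0.04).

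E2F8, at chr11:19224063-19241620 (minus strand), showed the largest falls of the family in shARID1A.4 and shARID1A/B.2.3. Control libraries had 720, 756 and 733, those labelled shARID1A.2 had 298, 297 and 322, and those labelled shARID1A.4 had 224, 243 and 201. Values of 458, 511 and 413 were found in shARID1B.2, 635, 674 and 678 in shARID1B.3, 219, 155 and 209 in shARID1A/B.2.3 and 315, 355 and 321 in shARID1A/B.4.2. The mean was lowest in shARID1A/B.2.3 (194 ± 34.2, SD, n = 3), where 1 library stood at 155, and shARID1A.4 (222 ± 21.1) overlapped it. No silenced library reached the Control range. E2F8 fell by 1.93 on the log2 scale in shARID1A/B.2.3 (SE 0.10, to 26.2% of Control), fell by 1.73 in shARID1A.4 (30.2%), by 1.27 in shARID1A.2 (41.6%), 1.16 in shARID1A/B.4.2 (44.9%) and 0.68 in shARID1B.2 (62.4%). In shARID1B.3 it had a change of -0.15 that did not pass the test (SE 0.10, adjusted p = 0.174), although it did when only the libraries compared entered the fit (adjusted p = 0.0148).

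E2F4, the main repressor partner of the p107 and p130 pocket proteins, is at chr16:67192169-67198918 (plus strand). It had 2686 to 2758 in Control and rose in 4 conditions, to 3616 to 3690 in shARID1A.4, 3371 to 3472 in shARID1B.2, 3230 to 3406 in shARID1B.3 and 3331 to 3547 in shARID1A/B.2.3, with no overlap with Control. The log2 changes were 0.43, 0.33, 0.30 and 0.34 (SE 0.03 for each). In shARID1A.2 (2399 to 2578) and shARID1A/B.4.2 (2531 to 2642) it was called lower, with -0.13 and -0.08. These 2 directions turned to 0.04 and 0.11 when libraries were scaled to total reads, a scaling that moved the median of all genes up by 0.17 in shARID1A.2, 0.13 in shARID1B.2 and 0.18 in shARID1A/B.4.2, and by 0.02 to 0.03 in the other comparisons.

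E2F5, a second pocket-dependent repressor, was called in all 6 conditions, with rises of up to 0.90 and a fall of 0.90 on the log2 scale. It had 967, 972 and 934 in Control, 1728, 1812 and 1784 in shARID1A.2, 1178, 1261 and 1204 in shARID1A.4 and 1177, 1231 and 1192 in shARID1B.2. Libraries labelled shARID1B.3 had 508, 533 and 502, those labelled shARID1A/B.2.3 had 1814, 1825 and 1737, and those labelled shARID1A/B.4.2 had 1293, 1218 and 1225. Every library lay outside the Control range, above it in 5 conditions and below it in shARID1B.3. E2F5 rose to 187% of Control in shARID1A/B.2.3 (log2 change 0.90, SE 0.04) and 185% in shARID1A.2, to 125% to 130% in shARID1A.4, shARID1B.2 and shARID1A/B.4.2, and it fell to 53.7% in shARID1B.3.

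E2F6, which represses without pocket proteins, is at chr2:11444375-11466177 (minus strand). Its values were 1755, 1795 and 1688 in Control, 1891, 1857 and 1850 in shARID1A.2, 3506, 3746 and 3557 in shARID1A.4 and 1499, 1564 and 1553 in shARID1B.2. They were 2554, 2668 and 2601 in shARID1B.3, 2707, 2588 and 2611 in shARID1A/B.2.3 and 2192, 2243 and 2219 in shARID1A/B.4.2. The libraries labelled shARID1A.4 stood above all others, and those labelled shARID1B.2 were the only ones below Control. E2F6 rose to 206% of Control in shARID1A.4 (log2 change 1.04, SE 0.03), 151% in shARID1A/B.2.3, 149% in shARID1B.3 and 127% in shARID1A/B.4.2. Its rise of 0.10 in shARID1A.2 was lost without Control replicate 3 (0.07, adjusted p = 0.0533), and its fall of 0.18 in shARID1B.2 was lost with scaling to total reads (-0.05, adjusted p = 0.192).

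Of the DP partners, TFDP1, which encodes DP1, is at chr13:113584721-113641470 (plus strand) and had 4790 to 5075 in Control. It fell by 0.42 in shARID1A.2 (3576 to 3797) and by 0.39 in shARID1B.2 (3726 to 3889), below every Control library. It fell by 0.11 in shARID1A/B.4.2 (4520 to 4624), a direction that turned to 0.07 with scaling to total reads. It was not called in shARID1A.4 (0.01, adjusted p = 0.815), shARID1B.3 (-0.05, adjusted p = 0.15) or shARID1A/B.2.3 (0.04, adjusted p = 0.286), where the ranges overlapped Control. With upper-quartile scaling limma called TFDP1 higher in shARID1A.4 (0.09, adjusted p = 0.00771) and shARID1A/B.2.3 (0.08, adjusted p = 0.0175). Scaling to total reads did so in shARID1A/B.2.3 (0.07, adjusted p = 0.0286). Without Control replicate 3 it was called lower in shARID1B.3 (-0.07, adjusted p = 0.0439). TFDP2, which encodes DP2, is at chr3:141944428-142149544 (minus strand) and had 2920 to 3022 in Control. It rose in 5 conditions, by 0.17 in shARID1A.2, 0.39 in shARID1A.4, 0.22 in shARID1B.3, 0.42 in shARID1A/B.2.3 and 0.31 in shARID1A/B.4.2, and fell by 0.30 in shARID1B.2 (2351 to 2426), with no overlap with Control in any of them.

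To set activators against repressors, the log2 change of each library from the Control mean was averaged over genes, as a description with no test. The activators E2F1 to E2F3 averaged -0.96 ± 0.04 (SD, n = 3 libraries) in shARID1A.2, -0.91 ± 0.03 in shARID1A.4, -0.63 ± 0.02 in shARID1B.2, -0.09 ± 0.02 in shARID1B.3, -1.07 ± 0.03 in shARID1A/B.2.3 and -0.85 ± 0.04 in shARID1A/B.4.2. Averages over E2F4, E2F5 and E2F6 were 0.28 ± 0.02, 0.61 ± 0.03, 0.16 ± 0.02, -0.01 ± 0.03, 0.61 ± 0.01 and 0.22 ± 0.02 in the same order. The -0.01 of shARID1B.3 averages called changes in opposite directions, with E2F5 at -0.90, E2F6 at 0.58 and E2F4 at 0.30. The averages of E2F7 and E2F8 were -1.13 ± 0.04, -1.32 ± 0.04, -0.70 ± 0.09, 0.10 ± 0.05, -1.57 ± 0.16 and -0.81 ± 0.05. The 0.10 of shARID1B.3 averages E2F7, called higher at 0.35, and E2F8, at -0.15 and not called. Grouped this way, E2F7 and E2F8 stood at or below the activators in 4 conditions and close to them in shARID1A/B.4.2. The average of E2F4, E2F5 and E2F6 was above Control in each of these 5 conditions. E2F4 was nonetheless called lower in shARID1A.2 and shARID1A/B.4.2, and E2F6 in shARID1B.2. The planned contrast was over all 5 repressors. This split of them was made with the results known, so it describes the values and does not test a division. Over all 5 repressors the activators stood lower by 0.68 ± 0.05 in shARID1A.2, 0.75 ± 0.05 in shARID1A.4, 0.45 ± 0.05 in shARID1B.2, 0.12 ± 0.06 in shARID1B.3, 0.82 ± 0.08 in shARID1A/B.2.3 and 0.65 ± 0.02 in shARID1A/B.4.2. Against E2F7 and E2F8 alone the activators were higher by 0.17 ± 0.06, 0.41 ± 0.04, 0.07 ± 0.10 and 0.49 ± 0.17 in shARID1A.2, shARID1A.4, shARID1B.2 and shARID1A/B.2.3, so a contrast over all repressors averages opposite movements.

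**Figure D2:**
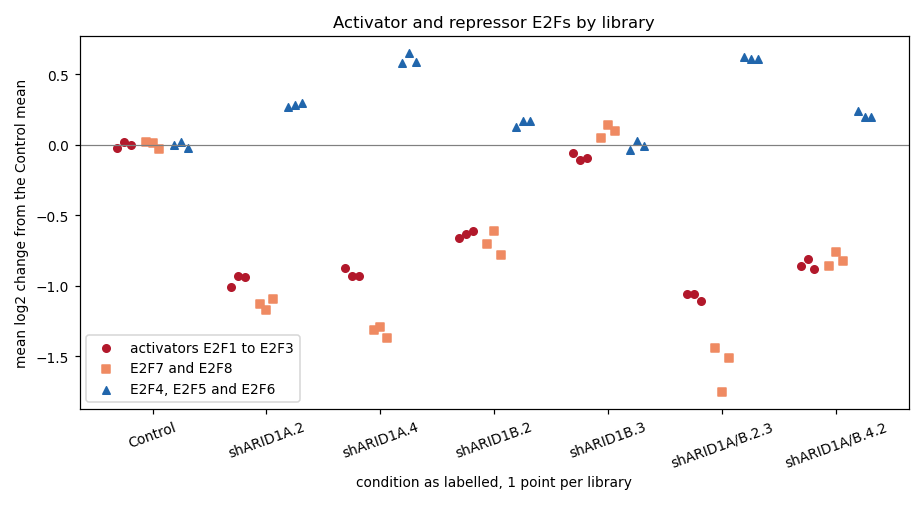
Mean log2 change from the Control mean (vertical axis) of the activators E2F1 to E2F3 (circles), of E2F7 and E2F8 (squares) and of E2F4, E2F5 and E2F6 (triangles), 1 point per library and 3 libraries per labelled condition. Circles and squares lie between -1.75 and -0.61 in 5 silenced conditions while triangles lie between 0.13 and 0.65. In shARID1B.3 all 3 averages are near 0, the triangles because E2F5 fell while E2F4 and E2F6 rose. The squares there average E2F7, called higher at 0.35, and E2F8, at -0.15 and not called.

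The 2 conditions that share a label differed in most members. Between shARID1A.2 and shARID1A.4, 9 of 10 members differed, where 75.8% of all genes did. Between shARID1B.2 and shARID1B.3 it was 9 of 10 against 66%, and between shARID1A/B.2.3 and shARID1A/B.4.2 9 of 10 against 74.9%. E2F7 did not pass between the shARID1A conditions (-0.07, SE 0.04, adjusted p = 0.127), E2F4 between the shARID1B conditions (0.03, SE 0.03, adjusted p = 0.387) and E2F2 between the combinations (-0.11, SE 0.06, adjusted p = 0.121). The size of the difference between the members was measured as the root mean square over the 10 genes of the difference of mean log2 values. It was 0.27 between shARID1A.4 and shARID1A/B.2.3 and 0.28 between shARID1A.2 and shARID1A/B.4.2, the smallest of the 21 pairs of conditions, against 0.45 between the 2 shARID1A conditions, 0.69 between the 2 shARID1B conditions and 0.435 between the combinations. Over all tested genes these same pairs were also the nearest, with 0.55 and 0.52 against 1.02, 0.75 and 0.96. Control was nearest to shARID1B.3 over the members (0.38).

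Averaged over the 2 conditions of each label, 9 of 10 members differed between the libraries labelled shARID1A and those labelled shARID1B, where 67.3% of all genes did. E2F8 was lower by 1.08 (SE 0.07), E2F2 by 0.86, E2F7 by 0.77, E2F1 by 0.59, E2F3 by 0.29 and E2F4 by 0.16 in those labelled shARID1A, whereas E2F5 was higher by 0.90, E2F6 by 0.37 and TFDP2 by 0.32. Between the libraries labelled shARID1A/B and shARID1B all 10 differed, against 70.2% of all genes, with E2F8 at -1.13, E2F2 at -0.99, E2F7 at -0.65, E2F1 at -0.60 and E2F5 at 0.93. Between those labelled shARID1A and shARID1A/B 6 of 10 differed, against 59.2%, and the 6 differences lay between -0.17 (TFDP1) and 0.13 (E2F2). ARID1A was low in the shARID1A and shARID1B libraries and ARID1B in the shARID1A and shARID1A/B libraries. These are differences of label averages, and the 2 shRNAs averaged under each label differed from each other, as given above. The SE and the calls come from the spread between libraries and do not measure the spread between shRNAs. The average of shARID1B rests in part on shARID1B.3, and shARID1B.2 alone was not always on the same side: E2F7 had a mean of 787 in shARID1B.2 against 933 in shARID1A/B.4.2, and E2F3 had 2654 against 2869. E2F4 was called lower in shARID1A/B than in shARID1B (-0.19), although its mean of 3422 in shARID1A/B.2.3 was above both shARID1B conditions, with overlapping ranges. E2F6 (0.27) and TFDP1 (0.18) were called higher in shARID1A/B. In shARID1A/B.4.2, however, they had 2218 and 4585, below the 2608 and 4800 of shARID1B.3. Single shARID1A conditions also departed from their label average. E2F4 had a mean of 3663 in shARID1A.4, above shARID1B.2 (3409) and shARID1B.3 (3339). E2F6 had 1866 in shARID1A.2, below the 2608 of shARID1B.3, and TFDP2 had 3333 against 3442 there, with overlapping ranges. In shARID1A.4 and shARID1B.2, E2F3 (2716 and 2654) and E2F5 (1214 and 1200) had overlapping ranges.

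The genes that act with and after the E2Fs were read from 5 textbook lists, described by counts and medians. Each count of falls or rises is of called genes. It is to be read beside the share of all genes, 32% to 38.2% called lower and 31.6% to 37.9% called higher, depending on the condition. Wherever a count of 0 is given for a list, limma at an unadjusted p below 0.05, edgeR and DESeq2 gave 0 as well. Of 28 classic G1/S targets, genes for replication and nucleotide synthesis among them, 27 fell and 1 rose in shARID1A.2, 27 fell and 0 rose in shARID1A.4, 27 and 1 in shARID1B.2, 17 and 6 in shARID1B.3, 27 and 0 in shARID1A/B.2.3 and 27 and 1 in shARID1A/B.4.2. Their median log2 changes were -1.21, -1.15, -0.56, -0.14, -1.13 and -0.89, where the median over all genes was 0.01 to 0.02. TYMS, the thymidylate synthase, averaged -1.55 over the 6 comparisons (range -2.28 to -0.28) and fell in all 6, as did CCNE2, the cyclin E2 gene (average -1.51, range -2.43 to -1.03). The highest averages were those of EZH2, the Polycomb methyltransferase, at -0.41, which fell in 5 and rose in shARID1B.3 (0.15), and of CCNE1, the cyclin E1 gene, at 0.47. CCNE1 rose in 3 conditions, by 1.46 in shARID1A.2, 0.51 in shARID1B.2 and 0.89 in shARID1A/B.4.2, and was the 1 target that did not fall in 5 of the conditions.

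The 9 pocket proteins and DREAM/MuvB subunits include p107 and p130, the partners of E2F4, but not all of the 9 act with E2F4. Of the 9, 7 fell in shARID1A.2, 8 in shARID1A.4, 7 in shARID1B.2, 5 in shARID1B.3, 8 in shARID1A/B.2.3 and 8 in shARID1A/B.4.2, and 0, 0, 1, 2, 0 and 0 rose. RB1, the retinoblastoma pocket protein, averaged -0.84 (range -1.15 to -0.34) and LIN52, a MuvB subunit, -0.74, and both fell in all 6 conditions. RBL2, which encodes p130, averaged -0.16 with a range of -0.79 to 0.35, and LIN37, another MuvB subunit, 0.09. The medians of the list were -0.75, -0.63, -0.32, -0.17, -0.79 and -0.62.

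Among 11 partners of E2F6 in its Polycomb complex, falls and rises were mixed: 6 and 4 in shARID1A.2, 5 and 5 in shARID1A.4, 5 and 2 in shARID1B.2, 6 and 4 in shARID1B.3, 5 and 5 in shARID1A/B.2.3 and 3 and 6 in shARID1A/B.4.2. The medians lay between -0.18 and 0.08, where the median over all genes was 0.01 to 0.02, and over all genes falls and rises were mixed as well. YAF2, a Polycomb subunit, averaged -0.76 and CBX3, a heterochromatin protein, -0.72, whereas MAX, a bHLH partner, averaged 0.24 and EHMT1, a histone methyltransferase, 0.31. Of 5 germline genes that E2F6 is known to silence, SLC25A31, MAEL and DDX4 did not pass the filter on low values. The cohesin genes SMC1B (average 0.20, range -2.05 to 1.17) and STAG3 (average 0.50, range -0.40 to 1.67) each rose in 2 conditions and fell in 1. STAG3 rose by 1.67 in shARID1A.4 and by 1.36 in shARID1B.3, 2 of the 3 conditions with the highest E2F6. In shARID1A/B.2.3, the remaining one, it had -0.02 and was not called. In these conditions SMC1B had -0.14 in shARID1A.4 and 0.56 in shARID1B.3, neither of them called. In shARID1A/B.2.3 it was called lower, at -2.05. A link of either gene to the level of E2F6 was not tested. The medians of these 2 genes were 0.63, 0.76, 0.42, 0.96, -1.03 and 0.38.

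Of the 6 genes of E2F protein turnover and inhibition, 5 fell in shARID1A.2, 5 in shARID1A.4, 6 in shARID1B.2, 3 in shARID1B.3, 5 in shARID1A/B.2.3 and 5 in shARID1A/B.4.2, and 1, 0, 0, 2, 0 and 1 rose. The medians were -0.70, -0.45, -0.36, -0.11, -0.61 and -0.54. CDK2, the kinase that phosphorylates pocket proteins with cyclin E, averaged -1.15 (range -1.96 to -0.23) and fell in all 6. SKP2, the ubiquitin ligase subunit that marks E2F1, averaged -0.83 and fell by 1.73 in shARID1A.4 and fell by 2.08 in shARID1A/B.2.3 but by 0.45 to 0.46 in shARID1A.2, shARID1B.2 and shARID1A/B.4.2. CCNF, which marks E2F proteins for degradation, averaged -0.31. CDK3 averaged -0.06 and was called lower in 2 conditions and higher in 2.

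The genes with the pattern nearest to each member were found over the 6 log2 changes against Control by Euclidean distance among the 18584 tested genes. Those nearest to E2F1 were MASTL (distance 0.115), KIF11 (0.147) and CCNA2 (0.222), where the median distance over all genes was 2.37. E2F2 lay nearest to PBK (0.302), TK1 (0.331) and ASPM (0.373), and E2F8 to CDK2 (0.262), WDR76 (0.305) and SGO2 (0.372). Cell cycle genes, by textbook knowledge, make up most of these lists, MASTL and KIF11 acting in mitosis and TK1 in nucleotide salvage. E2F3 had GNG12 (0.206), CSPP1 (0.225) and EZH2 (0.231), and E2F7 had VPS36 (0.229), ATF1 (0.325) and CDKN3 (0.374). The repressors E2F4, E2F5 and E2F6 had other neighbours: BUD31 (0.129), TRIM65 (0.211) and RPLP1 (0.211) for E2F4, OPTN (0.403), ALDH5A1 (0.444) and ZNF703 (0.448) for E2F5, and SCAMP5 (0.234), RABEPK (0.249) and ZNF512 (0.280) for E2F6. The DP partners had GTF3C2 (0.126), CAPZB (0.128) and MUS81 (0.139) beside TFDP1 and C19orf12 (0.147), PPP1R9A (0.160) and SLC25A44 (0.186) beside TFDP2. The comparisons share the Control libraries, so these distances are a description.

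Tested genes whose promoter window held the E2F element shown above were also read, leaving out the members. There were 753 of them and 11270 without it. Of those with the element, 52.9% were called lower in shARID1A.2 against 44.2% of those without, 50.2% against 40.7% in shARID1A.4, 46.1% against 39.8% in shARID1B.2, 38.5% against 36.8% in shARID1B.3, 47.5% against 37.6% in shARID1A/B.2.3 and 50.3% against 41.8% in shARID1A/B.4.2. The medians with the element were -0.17, -0.14, -0.10, -0.02, -0.16 and -0.16, and those without it -0.04, -0.01, -0.02, -0.02, 0.01 and -0.03. These shares were not tested.

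Per kilobase of annotated exon (GENCODE release 29), the Control level was highest for TFDP1 (1330 ± 40.5, SD, n = 3) and E2F1 (1120 ± 19.3). E2F4 (757 ± 11.2) and E2F3 (747 ± 15.2) followed and did not differ beyond their spread. Below them came E2F6 (429 ± 13.3), TFDP2 (249 ± 4.70), E2F7 (205 ± 9.93) and E2F2 (200 ± 9.65), the last 2 with overlapping ranges, then E2F8 (178 ± 4.33) and E2F5 (161 ± 3.48). Exon lengths are unions over all annotated transcripts and overstate the transcript of a gene with many isoforms such as TFDP2. Processed pseudogenes share sequence with E2F3, E2F4 and E2F6, and their values were small beside the parent genes, E2F6P1 reaching 13.0 at most and E2F3P2 4.75. TFDP3, a further DP gene, was listed at 0 in every library.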

How the data were processed

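SK-N-BE(2) RNA was sequenced in 21 libraries, 3 in each of 7 conditions taken from the sample titles. The values the authors deposited are a signal: read numbers of each gene after division by a library's size factor (0.841 to 1.29). The submitters' processing notes name STAR 2.5.3a, RSEM 1.3.0, DESeq2 1.26.0 and GRCh38. Libraries were made with a stranded mRNA kit. Multiplying back gave whole reads in 100% of the values checked (those up to 2000 reads, tolerance 0.1 read, largest deviation 0.0065), and gave 27954334 to 41077638 reads per library. The 3 deposited tables of the authors' own comparisons, with fold changes and p-values, were not used.

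A filter on recovered reads from edgeR kept 18584 genes, and log2 of the value plus a pseudocount of 1, which understates changes of low genes, was fitted with limma with a trend over all 21 libraries, with Benjamini-Hochberg adjustment over all kept genes. The members, lists and tests were chosen with earlier results of these data known. Genes named are the 10 members, ARID1A and ARID1B, of each list the 2 with the lowest and the 2 with the highest log2 change averaged over the 6 comparisons with Control, and for each member the 3 nearest genes. Alternatives were edgeR's quasi-likelihood test and DESeq2 on recovered reads, pseudocounts of 0.5 and 5, no filter (35892 genes), at least 10 reads in every library (14637 genes), scaling to total reads or the upper quartile, only the libraries compared, the replicate number as a block, and each library left out. The size rule of 0.5 log2 and the promoter motif were added after seeing the data. Averaging E2F4, E2F5 and E2F6 apart from E2F7 and E2F8 was likewise chosen with the results known. Replicates differed by more than sampling noise, chi-square over degrees of freedom running from 1.55 to 4.26. Equally numbered libraries of different conditions did not deviate together, with correlations from -0.184 to 0.213. The fits were tested on simulated reads. R 4.3.3, limma 3.58.1, edgeR 4.0.16, DESeq2 1.42.0, Python 3.11.15, numpy 2.4.6, pandas 2.3.3 and matplotlib 3.10.9 were used. Gene positions are from GENCODE release 29.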

Additional observations from a re-analysis of the deposited data

Results flagged for a closer look

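Conditions that share a label were set against each other directly (limma, adjusted over all 18584 genes), and each difference below passed at an adjusted p below 0.05, beside a background of 66% to 75.8% of all genes. In shARID1A.2 relative to shARID1A.4, E2F6 was lower by a log2 change of -0.95, E2F4 by -0.57, TFDP1 by -0.43, TFDP2 by -0.22, E2F2 by -0.16 and E2F3 by -0.10, whereas E2F5 was higher by 0.55, E2F8 by 0.46 and E2F1 by 0.12. In shARID1B.2 relative to shARID1B.3, E2F5 was higher by 1.22, and E2F7 (-1.07), E2F6 (-0.76), E2F1 (-0.55), E2F2 (-0.54), E2F3 (-0.54), E2F8 (-0.53), TFDP2 (-0.52) and TFDP1 (-0.34) were lower. In shARID1A/B.2.3 relative to shARID1A/B.4.2, E2F5 was higher by 0.52, E2F4 by 0.41, E2F6 by 0.25, TFDP1 by 0.15 and TFDP2 by 0.11, whereas E2F8 (-0.78), E2F7 (-0.73), E2F1 (-0.43) and E2F3 (-0.14) were lower. Between shARID1B.2 and shARID1B.3, E2F5, E2F6, E2F7 and TFDP2 moved in opposite directions from Control, with every library of one condition above the Control range and every library of the other below it. The same held for E2F4 between the shARID1A conditions and between the combinations, although scaling to total reads turned its change from Control to 0.04 in shARID1A.2 and 0.11 in shARID1A/B.4.2. The E2F2 difference between the shARID1A conditions was lost without shARID1A.2 replicate 1 (-0.09, adjusted p = 0.176), without shARID1A.4 replicate 1 (-0.14, adjusted p = 0.0729), without shARID1A.4 replicate 2 (-0.15, adjusted p = 0.0533) and with scaling to total reads (-0.01, adjusted p = 0.85). The TFDP2 difference between the shARID1A conditions was lost with that scaling as well (-0.07, adjusted p = 0.0596), and the TFDP2 difference between the combinations was lost without shARID1A/B.4.2 replicate 2 (0.06, adjusted p = 0.0826).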

How the results depend on the processing

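Of the 54 member calls against Control, 48 kept their direction and call in each of the 16 alternatives, among them the falls of E2F1, E2F2, E2F3, E2F7 and E2F8 in the 5 conditions other than shARID1B.3. Scaling to total reads reversed E2F4 in shARID1A.2 (0.04) and shARID1A/B.4.2 (0.11) and TFDP1 in shARID1A/B.4.2 (0.07), and the directly compared E2F3 between the shARID1A conditions (0.05) and TFDP1 (0.00) and TFDP2 (-0.04) between the combinations. With it, members higher in shARID1A/B.4.2 numbered 5, and 2 by at least 0.5 log2, and 3 were lower by that size in shARID1B.2. It also moved the share of lower genes among all calls from 50.2% to 38.8% in shARID1A.2, 51.9% to 37.0% in shARID1B.2 and 50.7% to 35.2% in shARID1A/B.4.2. Upper-quartile scaling gave 2 members higher by that size in shARID1A.4 and 1 member lower in shARID1B.3, and turned TFDP1 in shARID1B.3 to 0.03. E2F3 in shARID1B.3, at 0 in effect in the main fit, was 0.03 with edgeR, 0.00 with DESeq2 and 0.03 with total reads. With the upper quartile it was 0.07 and was called higher (limma, adjusted p = 0.0458). The cause was not tested in any of these. E2F4 in shARID1A/B.4.2 was also not called by edgeR (-0.04) or DESeq2 (-0.07).

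With edgeR 4 partners of E2F6 were higher in shARID1B.2 and 0 germline genes were lower in shARID1A/B.4.2. CDK3 averaged 0.04 with total reads. Leaving out 1 library gave E2F3 in shARID1B.3 values of -0.01 to 0.02, TFDP1 in shARID1A.4 -0.02 to 0.03, CDK3 averages of -0.18 to 0.10, and 1 to 3 members lower in shARID1B.3. Leaving out 1 E2F moved activators minus repressors between -0.93 and -0.39 in shARID1A.2, -1.14 and -0.45 in shARID1A.4, -0.58 and -0.32 in shARID1B.2, -0.36 and 0.01 in shARID1B.3, -1.23 and -0.52 in shARID1A/B.2.3 and -0.89 and -0.39 in shARID1A/B.4.2. The replicate numbers were not shown to pair libraries, and with the replicate block 7 members were lower and 3 higher in shARID1A.2, no member count moving by over 1.5 times. Each condition rests on 3 libraries of 1 cell line, at depths that left every member well above the filter.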
